A study of Mus musculus with 7 samples.

Results

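Cholesterol synthesis enzymes were followed in whole mouse embryos that lacked the homeodomain and zinc-finger protein ADNP. The 8 enzymes, in pathway order, were Hmgcs1, Mvd, Idi1, Fdps, Sqle, Lss, Msmo1 and Dhcr7. A probe set, the group of short probes that the array reads as 1 value, was taken for an enzyme only where the platform annotation gave that single symbol. All 8 were found, with 16 probe sets between them, out of 12393 symbols on the array. The LDL receptor, which belongs to the same regulated group, was not analysed here.

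Embryos of C57BL/6 mice were collected on embryonic day 9, freed of yolk sac and amnion, and read on Affymetrix Murine Genome 430A arrays. The groups were Adnp knockout (-/-, 2 arrays), Adnp heterozygous (+/-, 3 arrays) and wild type (+/+, 2 arrays), and typing of yolk sac DNA gave the genotypes. Each array held RNA pooled from 2 littermates of the same genotype, and sex is labelled as mixed, so 14 embryos stood behind 7 arrays and the pool is the replicate. All came from a colony of Adnp heterozygous mice. The labels do not say which pools shared a litter, so p-values measure the spread between these pools only.

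Cholesterol is built from acetyl-CoA. Early steps, HMG-CoA synthase among them, lead to mevalonate, the mevalonate steps yield isoprenoid units, these are joined to farnesyl diphosphate and squalene, and squalene is closed to lanosterol and trimmed to cholesterol. When sterols in the endoplasmic reticulum run low, the transcription factor SREBP2 is released and raises the genes of most of these enzymes together, often with the factor NF-Y bound at a nearby CCAAT box. In the embryo, cholesterol serves new membranes and modifies Hedgehog proteins.

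Promoter sequences of 6 of the 8 enzymes were found in RefSeq (build GRCm38.p6). They are shown as background on how these genes are controlled, and a link to the signals below was not tested. The 250 bases before the start are printed for 3 enzymes that lay above wild type on both knockout arrays and for Dhcr7, which did not. Capitals mark the sterol element (TCACNCCAC) and the CCAAT box (CCAAT) on either strand, so that the latter also reads ATTGG.
Hmgcs1, chr13:119690101-119690350, plus strand: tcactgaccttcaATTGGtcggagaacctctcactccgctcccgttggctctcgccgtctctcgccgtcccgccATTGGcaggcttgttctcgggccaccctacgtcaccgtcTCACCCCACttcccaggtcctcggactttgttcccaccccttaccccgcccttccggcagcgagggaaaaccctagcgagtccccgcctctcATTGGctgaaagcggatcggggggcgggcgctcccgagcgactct
Idi1, chr13:8885356-8885605, plus strand: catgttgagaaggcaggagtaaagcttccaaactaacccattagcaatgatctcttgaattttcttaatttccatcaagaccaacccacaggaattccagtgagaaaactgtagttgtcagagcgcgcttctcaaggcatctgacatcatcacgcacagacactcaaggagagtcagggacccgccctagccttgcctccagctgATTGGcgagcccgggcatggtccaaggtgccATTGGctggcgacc
Msmo1, chr8:64733579-64733828, minus strand: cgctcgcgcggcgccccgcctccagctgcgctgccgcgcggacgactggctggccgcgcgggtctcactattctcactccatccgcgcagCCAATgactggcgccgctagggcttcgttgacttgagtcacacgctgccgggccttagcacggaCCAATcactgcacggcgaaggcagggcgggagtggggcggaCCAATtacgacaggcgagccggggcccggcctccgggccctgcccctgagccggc
Dhcr7, chr7:143829964-143830213, plus strand: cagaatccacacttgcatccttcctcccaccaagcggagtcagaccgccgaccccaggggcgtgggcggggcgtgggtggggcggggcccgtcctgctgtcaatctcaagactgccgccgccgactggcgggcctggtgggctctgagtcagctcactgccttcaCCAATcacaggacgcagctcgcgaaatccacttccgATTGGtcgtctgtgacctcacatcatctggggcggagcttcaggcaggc

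The sterol element was found in 1 of the 8 promoter entries of these enzymes, that of Hmgcs1, 137 to 129 bases before the start, and in 1.05% of all 32851 entries of the same length. A CCAAT box stood in 6 of the 8 entries, against 33.8% of all entries. Each of the 6 genes had it in at least 1 entry, but Dhcr7 in only 1 of its 3, the one printed above. A GC box (GGGCGG), a binding site of Sp1, stood in 7 of the 8 entries, against 32.7% of all. An E-box (CACGTG) and the core of the hypoxia element (ACGTG), which overlap each other, were both found in 1 entry, another one of Dhcr7, against 6.02% and 16.6% of all. Dhcr7 had 3 entries and the other 5 genes 1 each, and a match describes letters in a window only.

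Across the arrays as a whole, median signals were 55.5 to 57.4. Of 8019 genes tested, 266 differed between knockout and wild type (3.32%) and 470 between knockout and heterozygous (5.86%) at an adjusted p under 0.05, by limma with Benjamini-Hochberg adjustment, as everywhere below. The targeted gene could not be checked, since its probe set is shared with the neighbouring gene Dpm1 (1880 and 1682 in knockout pools, 986 to 1196 in heterozygous pools, 897 and 1026 in wild-type pools). The knockout arrays also stood apart in markers of visceral endoderm, the absorptive layer that forms part of the yolk sac, which was dissected away. The summed signal of 16 such markers was 11986 and 14369 in knockout pools, 962 to 2144 in heterozygous pools and 897 and 3365 in wild-type pools. No marker read 0 on any array, and the lowest value was 0.5. In whole embryos, fewer cells of a type and less RNA per cell cannot be told apart.

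Signals of 6 of the 8 enzymes were higher on both knockout arrays than on any of the other 5 arrays: Hmgcs1, Mvd, Idi1, Fdps, Lss and Msmo1. Of all genes tested, 14.2% lay above in the same way. Against wild type the median log2 difference of the 8 enzymes was 0.62, against -0.01 over all genes tested. Hmgcs1 and Fdps rose past the threshold, the other 6 did not pass, and 0 fell. Of all genes, 1.96% rose past the threshold and 1.36% fell. At an unadjusted p under 0.05 in the limma fit there were 6 of the 8 enzymes, where 19.1% of all genes were. Both knockout arrays were above both wild-type arrays for 7 of the 8, against 24.7% of all genes, and all 8 differences were positive, against 47.7%. Differences are on the log2(signal + 3.8) scale. The 8 enzymes were chosen with earlier results of these arrays known. Shares of them set beside shares of all genes, here and below, are therefore descriptive and not a test.

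**Figure D1:**
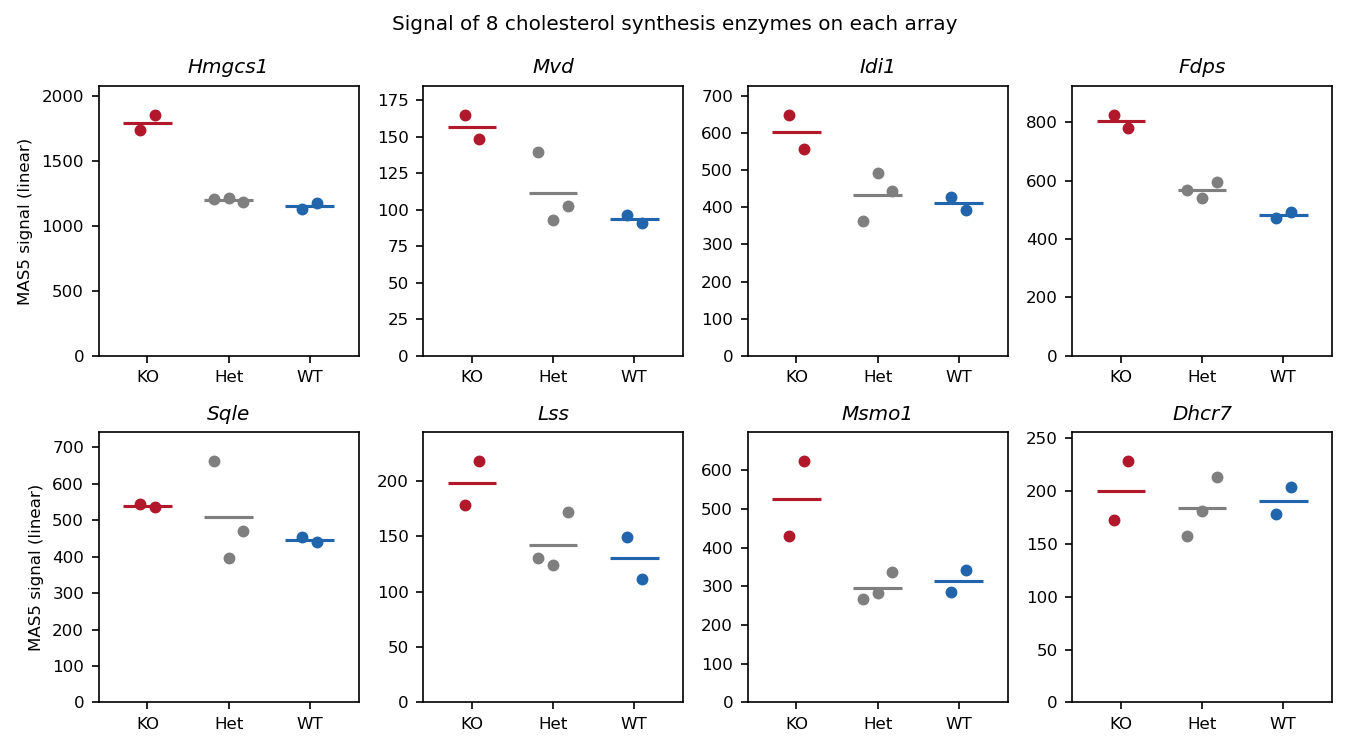
MAS5 signal on a linear axis from 0 for each of the 8 enzymes in knockout (KO), heterozygous (Het) and wild-type (WT) pools. Points are arrays and bars are means of 2, 3 and 2 arrays. Both knockout points lie above all others for Hmgcs1, Mvd, Idi1, Fdps, Lss and Msmo1, while Sqle and Dhcr7 overlap with the heterozygous pools.

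Hmgcs1, the cytosolic HMG-CoA synthase that makes the precursor of mevalonate, read 1739 and 1857 in knockout pools, 1209, 1219 and 1185 in heterozygous pools and 1134 and 1178 in wild-type pools. On this probe set, its brightest, the knockout arrays stood clear of a narrow band formed by the other 5 arrays. Hmgcs1 rose by 0.64 against wild type (SE 0.09, adjusted p = 0.00641), a fold of 1.55, and by 0.58 against heterozygous pools (SE 0.08, adjusted p = 0.00534). The call against wild type was lost without knockout replicate 2 (adjusted p = 0.091) or wild-type replicate 2 (0.0583), and that against heterozygous pools without knockout replicate 1 (0.0507) or 2 (0.0866).

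Mvd, mevalonate diphosphate decarboxylase, makes the first isoprenoid unit, isopentenyl diphosphate. It read 165 and 148.8 in knockout pools, 139.6, 92.8 and 102.4 in heterozygous pools and 96.7 and 91.2 in wild-type pools. The knockout arrays were the highest, with heterozygous replicate 1 close below them. The log2 difference from wild type was 0.72 (SE 0.20, adjusted p = 0.0826) and that from heterozygous pools 0.50 (SE 0.18, adjusted p = 0.14), so neither passed. Without heterozygous replicate 1 both passed (0.0309 and 0.0458).

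Idi1 isomerises isopentenyl diphosphate to its reactive partner. It read 648 and 556.3 in knockout pools, 361.9, 492.4 and 443.7 in heterozygous pools and 428.4 and 392.1 in wild-type pools. The heterozygous values spanned those of wild type, and the knockout values were above both. The difference from wild type was 0.55 (SE 0.15, adjusted p = 0.0852) and that from heterozygous pools 0.48 (SE 0.14, adjusted p = 0.0733), and neither passed. The first passed without heterozygous replicate 1 (0.0324) and the second without heterozygous replicate 2 (0.0413).

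Fdps, farnesyl diphosphate synthase, joins the isoprenoid units and stands where the pathway branches to sterols, dolichol, ubiquinone and prenylated proteins. It read 825 and 781.9 in knockout pools, 567.5, 541.2 and 595.9 in heterozygous pools and 471.5 and 492.8 in wild-type pools. The 3 genotypes did not overlap, with heterozygous pools in between. It rose by 0.73 against wild type (SE 0.11, adjusted p = 0.00635), a fold of 1.66, and by 0.50 against heterozygous pools (SE 0.10, adjusted p = 0.0173). Both calls were lost without either knockout array (0.0597 to 0.163), and that against wild type also without wild-type replicate 2 (0.0502).

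Sqle, squalene epoxidase, is an oxygen-dependent control step of the sterol branch. It read 544.7 and 535.1 in knockout pools, 661.6, 395.1 and 471.7 in heterozygous pools and 453.7 and 439.7 in wild-type pools. Its highest value was on heterozygous replicate 1, not on a knockout array. The log2 difference from wild type was 0.27 with a 95% interval from -0.16 to 0.71 (adjusted p = 0.497).

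Lss, lanosterol synthase, closes the sterol rings. It read 177.9 and 217.4 in knockout pools, 130.3, 124.4 and 171.6 in heterozygous pools and 148.8 and 111.3 in wild-type pools. Heterozygous replicate 3 lay just under the lower knockout array. The difference from wild type was 0.60 (SE 0.20, adjusted p = 0.146) and that from heterozygous pools 0.47 (SE 0.19, adjusted p = 0.166), and neither passed. The first was 0.39 without wild-type replicate 2 and 0.80 without wild-type replicate 1.

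Msmo1, the methylsterol monooxygenase that removes methyl groups from the ring, read 430.8 and 622.4 in knockout pools, 266.5, 283.1 and 337.5 in heterozygous pools and 285.4 and 340.9 in wild-type pools. Its knockout arrays differed more from each other, by a factor of 1.44, than those of any other of the 8 enzymes. It rose against heterozygous pools by 0.81 (SE 0.17, adjusted p = 0.0239), a fold of 1.75. The difference from wild type, 0.72 (SE 0.19, adjusted p = 0.0633), did not pass, though it did without heterozygous replicate 1 (0.0499) or with array weights (0.0393). It was 0.46 without knockout replicate 2 and 0.99 without knockout replicate 1. The call against heterozygous pools was lost without knockout replicate 2 (0.54, adjusted p = 0.212) or heterozygous replicate 1 (0.0527).

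Dhcr7, the reductase of the last step, read 172.7 and 228.1 in knockout pools, 157.5, 181.4 and 213.4 in heterozygous pools and 178.2 and 203.5 in wild-type pools. The 3 genotypes overlapped fully. The difference from wild type was 0.06 with a 95% interval from -0.35 to 0.47 (adjusted p = 0.908). The interval of Hmgcs1, 0.43 to 0.84, overlapped with it, and a difference between the 2 enzymes was not tested.

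**Figure D2:**
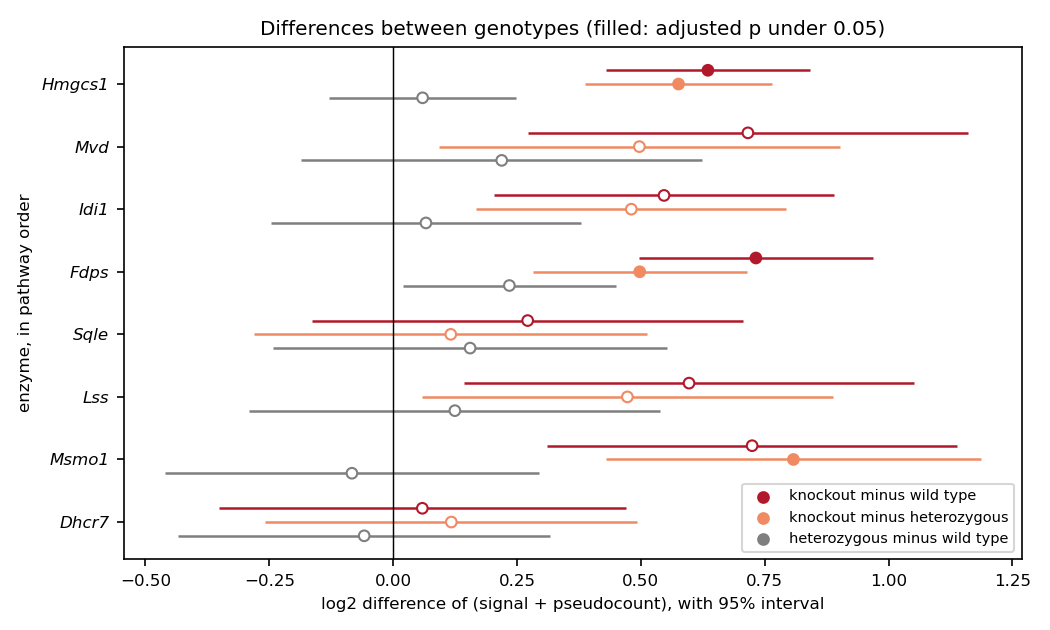
Log2 differences between genotypes with 95% intervals from limma for the 8 enzymes in pathway order, with filled points for adjusted p under 0.05. Hmgcs1 and Fdps are filled in both knockout comparisons and Msmo1 against heterozygous pools (0.81), while no difference between heterozygous and wild-type pools is filled.

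Loss of 1 copy of Adnp gave no call in this pathway. Between heterozygous and wild-type pools 0 of the 8 enzymes and 0 of 8019 genes (0%) passed by limma. At an unadjusted p under 0.05 there were 1 enzyme, Fdps (0.23, unadjusted p = 0.0359 in this fit across all genes), and 284 genes (3.54%). The median difference of the 8 enzymes was 0.10, against 0.01 over all genes, and single values ran from -0.08 for Msmo1 to 0.23 for Fdps. Of the 8 differences 6 were positive, where 51.7% of all genes were, and in 2 enzymes, Hmgcs1 and Fdps, all heterozygous arrays were above both wild-type arrays, against 9.12% of all genes. Against heterozygous pools the knockout had 3 of 8 enzymes risen, Hmgcs1, Fdps and Msmo1, where 3.11% of all genes rose and 2.76% fell, with a median of 0.49 against -0.02 over all genes. All 8 of these differences were positive, where 47% of all genes were, and 6 enzymes had an unadjusted p under 0.05 in the limma fit, where 22.7% of all genes had. Both knockout arrays were above all 3 heterozygous arrays for 6 enzymes, against 18.3% of all genes. Both knockout comparisons use the same 2 knockout arrays and so are not independent of each other.

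Several enzymes had more than 1 probe set, and these did not always give the same picture. All 4 of Hmgcs1 had positive log2 differences between knockout and wild type (0.64, 0.47, 0.60 and 0.72), yet with every probe set tested on its own only the brightest passed (adjusted p = 0.0138, against 0.0588 to 0.259). Against heterozygous pools the same 4 gave 0.58, 0.29, 0.30 and 0.52. Again only the brightest passed by limma (adjusted p = 0.0117, against 0.0876 to 0.401). For those with 0.29 and 0.30, knockout and heterozygous arrays overlapped. The probe set with 0.47 has the suffix x, Affymetrix's mark for probes that may bind other transcripts. The second probe set of Idi1 gave 0.57, close to the first. The second of Mvd gave 0.16 (adjusted p = 0.715), against 0.72 for the brighter one, with 109.1 and 132.9 in knockout pools, 88.4, 124.7 and 104.6 in heterozygous pools and 113.3 and 101.2 in wild-type pools. The Mvd difference therefore rests on 1 of its 2 probe sets. Of the 16 probe sets 13 passed the filter on brightness. Those below it were the second of Fdps, which read 0.5 to 0.9 on every array, and 2 of Lss. Of the latter, 1 read 37.7 and 39.8 in knockout pools, 29.6, 30.9 and 25.1 in heterozygous pools and 24.4 and 23.7 in wild-type pools, again with the knockout arrays on top, and the other overlapped.

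**Figure D3:**
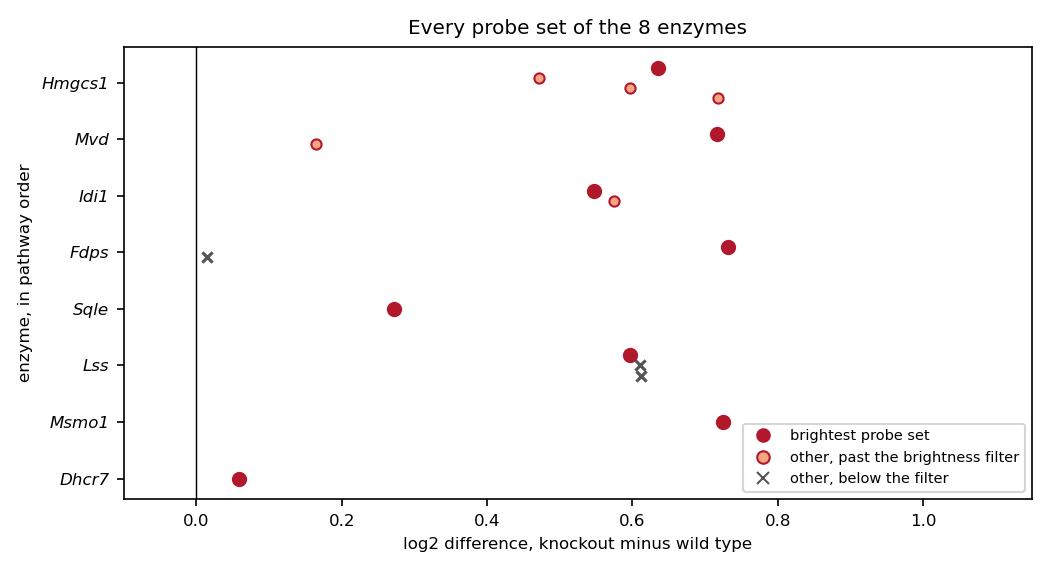
Log2 difference between knockout and wild type for each of the 16 probe sets of the 8 enzymes. Large filled points are the brightest probe set of each gene, small points others past the brightness filter and crosses those below it. The Hmgcs1 and Idi1 probe sets lie together, whereas those of Mvd lie apart (0.72 and 0.16).

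Of 13 other enzymes of the pathway listed, 10 were measured, and 0 of them passed in either direction against wild type by limma. At an unadjusted p under 0.05 there were 3, where 19.1% of all genes were. Their median log2 difference was 0.23, and 8 of 10 were positive, where 47.7% of all genes were. Cyp51, the lanosterol demethylase, read 220.2 and 256.7 in knockout pools, 149.4, 166.2 and 201.2 in heterozygous pools and 179.3 and 154.3 in wild-type pools (0.51, adjusted p = 0.143). Nsdhl, which works with Msmo1 on the same methyl groups, differed by 0.38 (adjusted p = 0.171) and Fdft1, squalene synthase, by 0.36 (0.161). In these 3 of the 10 both knockout arrays were above all others, where 14.2% of all genes were. Sc5d, a late sterol desaturase, differed by 0.31 (0.445). The 8 enzymes and these 10 were set apart with earlier results of the same arrays known, so the gap between their medians is not a finding. Over all 18 measured enzymes, which include the 8, 16 had a positive difference, with a median of 0.34. Both knockout arrays were above all others for 9 of the 18, against 14.2% of all genes.

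**Figure D4:**
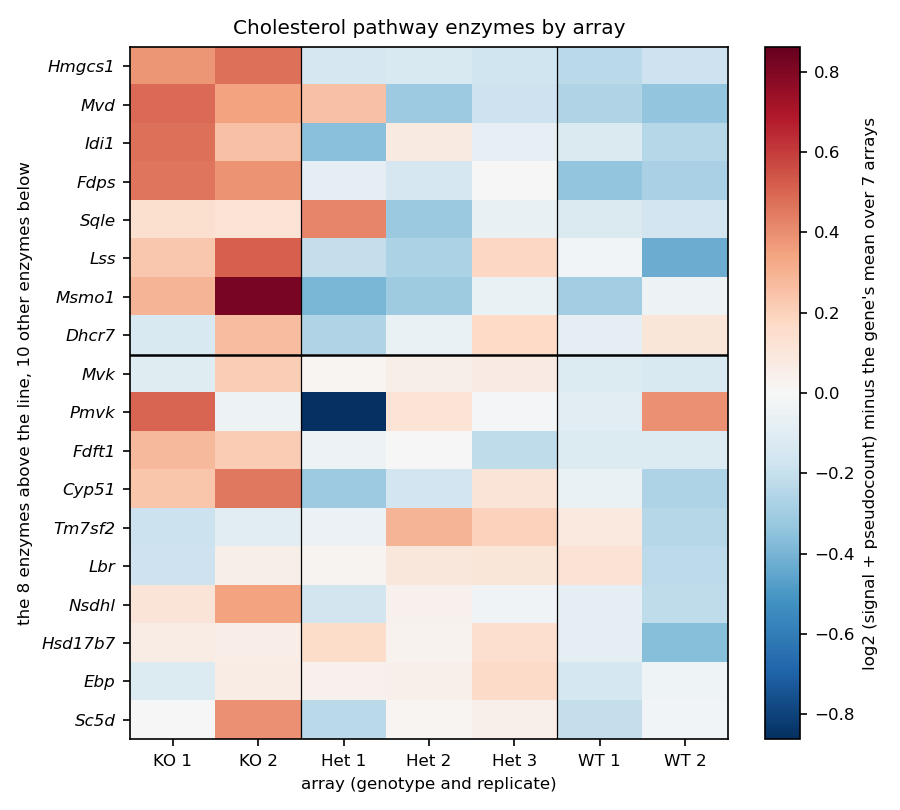
Log2 signal of 18 measured cholesterol enzymes on each array, minus the gene's mean over the 7 arrays, with the 8 enzymes above the line and 10 others below. Red is above the mean and blue below. Both knockout cells are above 0.1 for Hmgcs1, Mvd, Idi1, Fdps, Lss and Msmo1, for Sqle more weakly, and for Fdft1, Cyp51 and Nsdhl below the line.

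Among 13 measured genes of cholesterol uptake and SREBP control, 1 rose against wild type, where 1.96% of all genes did, and 2 against heterozygous pools, where 3.11% did. The median against wild type was 0.20. Mylip, the ubiquitin ligase also called IDOL that marks the LDL receptor for breakdown, read 188.4 and 195.3 in knockout pools, 133.1, 111.9 and 122.9 in heterozygous pools and 108.4 and 118.2 in wild-type pools. It rose by 0.74 against wild type (SE 0.15, adjusted p = 0.027) and by 0.63 against heterozygous pools (0.0279). The first call was lost without any single knockout or wild-type array (0.108 to 0.183), and the second without either knockout array or heterozygous replicate 2 or 3 (0.0504 to 0.182). With the replicate block neither passed (0.112 and 0.136), nor with either score as covariate (0.0729 to 0.929), and the first also not with no filter (0.0501). Stard4, a cytosolic cholesterol carrier, read 278 and 263.1 in knockout pools, 142.5, 131.6 and 199.7 in heterozygous pools and 140.8 and 170.8 in wild-type pools. It rose against heterozygous pools by 0.79 (SE 0.18, adjusted p = 0.035), a call lost without either knockout array or heterozygous replicate 1 or 2 (0.0625 to 0.201), and also with no filter, no trend, the replicate block, the mean of its probe sets or the visceral endoderm score (0.0523 to 0.434). Against wild type its difference of 0.79 did not pass (0.0597), though it did without heterozygous replicate 1 (0.0493) or 3 (0.0357), with array weights (0.0306) or a pseudocount of 50, and with only those genotypes compared (0.0281). Scarb1, the HDL receptor, differed from wild type by 0.55 (0.173) and Npc2, a lysosomal cholesterol carrier, by 0.40 (0.255). Srebf2, the gene of SREBP2, differed by -0.04 (adjusted p = 0.941) and its escort Scap by -0.02 (0.963), and neither passed.

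Fatty acid synthesis, which SREBP1 controls, had a median of 0.02 over 12 measured genes. Of these 1 rose against wild type, where 1.96% of all genes did. Scd1, a stearoyl-CoA desaturase, read 421.4 and 429.6 in knockout pools, 276.5, 387.1 and 325.8 in heterozygous pools and 278.9 and 214.8 in wild-type pools. It rose by 0.79 (SE 0.17, adjusted p = 0.0382), a call lost without either knockout array, heterozygous replicate 3 or wild-type replicate 2 (0.0685 to 0.291). It was also lost with no brightness filter (0.068), no intensity trend (0.0866), the replicate number as a block (0.134) or the visceral endoderm score as covariate (0.07, adjusted p = 0.95), and the Y-linked score turned the difference to -0.21. Elovl6, a fatty acid elongase, differed by 0.38 (0.147), Scd2 by 0.35 (0.156), Me1, the malic enzyme, by -0.22 (0.595) and Fasn, fatty acid synthase, by -0.05 (0.844). Both knockout arrays were above both wild-type arrays for 6 of the 12 genes, Elovl6 and Scd2 among them, against 24.7% of all genes. Of these 6, Acss2, Acly and Fads2 differed by only 0.06, 0.05 and 0.02. For 2 of the 12 both knockout arrays were below both wild-type arrays, as for 2266 of all 8019 genes.

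In the branches that draw on isoprenoids, 0 of 7 measured genes passed by limma, with a median of -0.10. At an unadjusted p under 0.05 in that fit there were 2, where 19.1% of all genes were. Dhdds, which makes dolichol, differed by -0.43 (adjusted p = 0.222), Fnta and Fntb, the farnesyltransferase subunits, by 0.31 (0.198) and -0.21 (0.495), and Ggps1, geranylgeranyl diphosphate synthase, by -0.18 (0.712). In the Hedgehog pathway 0 of 8 measured genes passed, with a median of -0.09. Here too 2 had an unadjusted p under 0.05 in the limma fit, against the same 19.1% of all genes. Ihh, a Hedgehog ligand, differed by 0.58 (0.244), the receptor Ptch1 by 0.52 (0.108), the coreceptor Boc by 0.28 (0.413) and the inhibitor Sufu by -0.16 (0.642). Ptch1 read 768.8 and 754.7 in knockout pools, 423.7 to 613.6 in heterozygous pools and 555.3 and 504.4 in wild-type pools, with both knockout arrays above all others and the other genotypes overlapping.

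**Figure D5:**
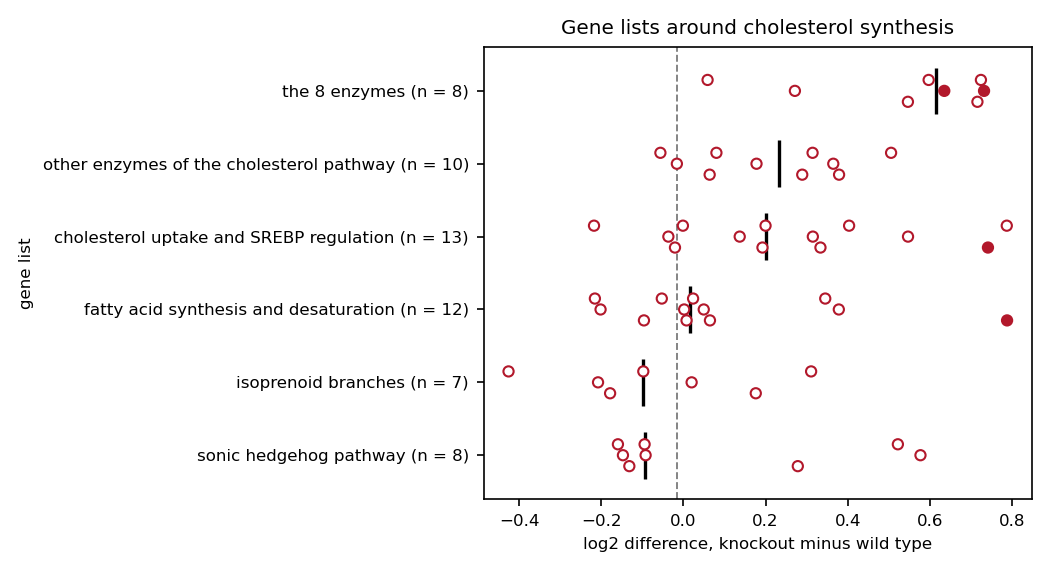
Log2 difference between knockout and wild type for each measured gene of 6 lists. Filled points passed the threshold, black bars are list medians (0.62 for the 8 enzymes at the top) and the dashed line is the median of all genes tested. Filled points are Hmgcs1, Fdps, Mylip and Scd1.

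The genes whose signals followed the mean of the 8 enzymes most closely over the 7 arrays were Pdk1 (r = 0.989), Kdm3a (0.988), Ddit4 (0.985), Eif3m (0.984), Bloc1s4 (0.982) and Plac1 (0.98). These are Pearson values over 7 arrays that share the split between knockout and other pools, given as a measure of likeness without a test. Pdk1, a pyruvate dehydrogenase kinase, read 471.3 and 484 in knockout pools, 303.6, 277.8 and 336.4 in heterozygous pools and 263 and 284.3 in wild-type pools. It rose by 0.80 against wild type (adjusted p = 0.0101), a call lost without either knockout array or wild-type replicate 2 (0.0644 to 0.101). Kdm3a, a histone demethylase, rose by 0.92 (0.00707; 0.091 without knockout replicate 2) and Ddit4, an mTOR inhibitor, by 1.62 (0.000744). Eif3m, a translation factor subunit, differed by 0.24 (0.232), Bloc1s4 by 0.37 (0.296) and Plac1, a placental protein, by 0.84 (0.0596), and these 3 did not pass. Among the 8 enzymes, Hmgcs1 (r = 0.947) and Fdps (0.94) followed the mean of the other 7 most closely, and Sqle (0.302) and Dhcr7 (0.222) least.

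Markers of visceral endoderm also differed between knockout and other pools. Of 16 measured markers 11 rose against wild type (Apoa1, Spink1, Cubn, Apoe, Apob, Rbp4, Afp, Apom, Apoa2, Lrp2 and Dab2) and 14 against heterozygous pools, among them also Apoc2, Ttr and Amn, with a median log2 difference from wild type of 2.89. Leaving out knockout replicate 2 gave 2 calls against wild type and 6 against heterozygous pools, and leaving out knockout replicate 1 gave 5 and 5. Leaving out wild-type replicate 2 gave 7 against wild type. Over all genes 1.96% rose against wild type and 3.11% against heterozygous pools in the full fit. The filter used the mean of all 7 arrays, so high knockout signals helped markers such as Cubn (14 to 71.5 elsewhere) pass it. With no filter 8 of 17 markers rose against wild type and 12 against heterozygous pools. These counts were 7 and 11 with no intensity trend, 5 and 6 with the replicate block, and 13 and 14 with a pseudocount of 50. Apoa1, an apolipoprotein, had the largest difference from wild type, 4.91 (adjusted p = 0.0171). Within wild type, replicate 1 had 3.75 times the summed marker signal of replicate 2 and was higher for 15 of 16 markers. Of the 8 enzymes 4 were higher in replicate 1 and 4 in replicate 2. Hmgcs1, Fdps, Msmo1 and Dhcr7 were the ones lower in replicate 1. Among heterozygous pools the mean log2 marker signal was 5.17, 6.60 and 6.00 in replicates 1 to 3. The mean standardised log2 signal of the 8 enzymes was -0.31, -0.59 and -0.04 there. With the mean marker signal as a covariate 0 enzymes passed against wild type (5 at an unadjusted p under 0.05 in this limma fit), where 4 genes of all passed. The mean log2 marker signal was 9.02 and 9.24 in knockout pools, 5.17 to 6.60 in heterozygous pools and 7.16 and 5.27 in wild-type pools. With no overlap between knockout and the rest, this fit cannot tell marker signal and genotype apart. The median of the 8 was then 0.73, but single enzymes moved both ways. Idi1 stood at 0.12, Lss at 0.19 and Dhcr7 at 0.02, while Hmgcs1 stood at 0.67, Sqle at 0.78, Msmo1 at 0.82, Fdps at 0.84 and Mvd at 1.08. Against heterozygous pools Idi1 and Lss stood at 0.01 and 0.02 in that fit, and 0 enzymes passed (4 at an unadjusted p under 0.05).

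Sex-linked genes differed between pools as well. Kdm5d, on the Y chromosome, read 55.3 and 102.9 in knockout pools, 46.7, 90.3 and 50.1 in heterozygous pools and 10 and 4.3 in wild-type pools (2.91 against wild type, adjusted p = 0.00559). Xist, which is made from the inactive X chromosome, read 510.3 and 58.8 in knockout pools, 595, 62 and 548.2 in heterozygous pools and 801 and 844.4 in wild-type pools (-2.20, adjusted p = 0.292). Although sex is labelled as mixed, wild-type pools had the lowest Kdm5d and the highest Xist signals, as female embryos would. Knockout replicate 2 and heterozygous replicate 2 had the highest Kdm5d and the lowest Xist, so the label may not hold for each pool. The Kdm5d signals of heterozygous and knockout pools overlapped. The mean Y-linked log2 signal, which also took in Eif2s3y and Uty from below the brightness filter, was 5.69 and 6.11 in knockout pools. It was 5.11 to 5.99 in heterozygous pools and 3.56 and 3.14 in wild-type pools. Against wild type a fit with this signal cannot tell it and genotype apart. With the mean Y-linked signal as a covariate, 0 enzymes passed against wild type by limma (1 at an unadjusted p under 0.05), as did 0 of all genes, while the median of the 8 was 0.82 and single differences ran from 0.18 (Idi1 and Dhcr7) to 1.26 (Mvd). Against heterozygous pools Hmgcs1 and Fdps passed in that fit (adjusted p = 0.0339 and 0.041) and Msmo1 did not (0.0853).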

How the data were processed

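Per the submitters' processing notes, the authors summarised probe sets with MAS5, which combines perfect-match and mismatch probes. The deposited values are intensities on a linear scale, and their trimmed means lay at 150.0 to 150.1, so changes are relative to the whole array. No software version is given in those notes. Of 22690 probe sets 20380 had 1 symbol. The scale was log2(signal + 3.8), where 3.8 is the 10th percentile over all arrays. For each gene the probe set with the highest mean stood for it, and genes under the 40th percentile of mean log2 signal were left out.

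Genotypes were compared by limma 3.58.1 under R 4.3.3 (linear fits moderated by eBayes with trend) in a single fit of 7 arrays, with Benjamini-Hochberg adjustment over 8019 genes and a threshold of 0.05. The procedure was tested on simulated data. Depth is limited by the number of arrays. The enzymes and the 7 lists were chosen with earlier results of these data known. Named were all 8 enzymes, list genes past the threshold, the 4 largest differences from wild type of each list, and the 6 genes most like the enzymes' mean. Others (Srebf2, Scap, Fasn, Acss2, Acly and Fads2) were named after their values were seen. Same-numbered arrays did not deviate together (r from -0.294 to 0.005), so replicate numbers were not taken as pairs.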

Additional observations from a re-analysis of the deposited data

How the results depend on the processing

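The count of enzymes risen against wild type was 2. It was 5 with array weights, 4 with only the 2 genotypes compared, 1 with the mean of all probe sets of a gene (which brings in the dim probe set of Fdps), 0 with either the visceral endoderm or the Y-linked score as covariate, and 0 to 5 with each array left out in turn. The count against heterozygous pools was 3. It was 1 with no intensity trend, 1 with the replicate block, 1 with the mean of probe sets, 0 with the visceral endoderm score and 0 to 4 with each array left out. Against heterozygous pools the replicate block ended the calls of Hmgcs1 (adjusted p = 0.0591) and Fdps (0.0874), and no trend those of Fdps (0.0606) and Msmo1 (0.0664). Between heterozygous and wild-type pools it was 0 under every alternative listed in this paragraph. Other pseudocounts, filters and scalings left the 2 knockout counts within 1.5 times. Except where a cause is given, the cause was not tested.

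Whether same-numbered pools were pairs is not known. With the replicate block 2 enzymes rose against wild type, 72 genes passed in place of 266, and 76 in place of 470 against heterozygous pools. The first of these counts was 161 with no filter, 174 with no trend, 514 with array weights, 4 and 0 with the visceral endoderm and Y-linked scores and 36 to 417 with arrays left out. The second was 306, 262, 663, 0 and 144 under the same settings, and 67 to 545 with arrays left out.

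Several differences turned sign. Dhcr7 ran from -0.14 to 0.26 against wild type and from -0.080 to 0.31 against heterozygous pools with arrays left out, and Sqle from -0.049 to 0.32 against heterozygous pools. Between heterozygous and wild-type pools the ranges were -0.032 to 0.19 for Idi1, -0.049 to 0.32 for Sqle, -0.079 to 0.33 for Lss, -0.21 to 0.043 for Msmo1 and -0.17 to 0.046 for Dhcr7. With the Y-linked score, that difference was -0.034 for Hmgcs1, -0.24 for Idi1, 0.037 for Msmo1 and 0.042 for Dhcr7, and with the replicate block -0.015 for Lss. Scd1 stood at -0.21 against wild type with the Y-linked score and at -0.41 against heterozygous pools with the visceral endoderm score. With 2 or 3 arrays a group, moderate changes of single enzymes can be missed.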
